A study of Peromyscus maniculatus with 6 samples.

Results

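NF-kB is a family of dimeric transcription factors that switch on inflammatory, survival and stress genes. The genes described here are its subunits and genes listed as its feedback inhibitors. Of 10 listed symbols (Rela, Relb, Rel, Nfkb1, Nfkb2, Nfkbia, Nfkbie, Nfkbiz, Tnfaip3 and Bcl3), 8 were found by name among the 24281 genes of the deposited table. All 8 passed the filter on low counts. Rela and Nfkbiz are not named in the table and were not analysed here. The abundant subunit p65 and the inducible IkB protein IkB-zeta are therefore missing from every value below. Each of the 8 names sat on 1 gene ID, and 0 of the 8 gene spans overlapped another annotated gene.

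The cells were primary fibroblasts of deer mice (Peromyscus maniculatus, BW stock, 4 weeks old), grown out of collagenase-digested ear punches. The design holds 6 libraries, a control and a tunicamycin library for each of 3 animals (BW35770, BW35772 and BW35773). They were plated at 300000 per well for 24 h, and treated wells then received tunicamycin for 5 h, at a concentration that the label states as 5 mg per mL and that could not be checked here. Neither the sex of the animals nor the vehicle of the control wells is given in the sources used here, and no genetic change is stated for any group. Tunicamycin blocks N-linked glycosylation, so unglycosylated proteins pile up in the endoplasmic reticulum (ER) and set off the unfolded protein response.

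In resting cells, NF-kB dimers are kept in the cytoplasm by IkB proteins. In the canonical arm the IkB kinase (IKK) marks IkB for destruction and releases dimers of p65, c-Rel and p50. In the non-canonical arm, processing of p100 to p52 releases dimers that hold RelB. Several subunit and inhibitor genes are themselves NF-kB targets, which gives the pathway its feedback loops. ER stress is known to engage NF-kB through more than 1 sensor of the unfolded protein response, among them PERK, which slows the synthesis of short-lived proteins such as IkB-alpha.

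Libraries held 37852385 to 49352126 counts on genes. Ddit3, the stress factor CHOP, went from 22.1 ± 2.38 to 341 ± 95.5 CPM (counts scaled to library size; mean ± SD, n = 3 libraries), and it rose in all 3 animals (edgeR adjusted p = 0.000488). Atf4, the central factor of the integrated stress response, rose by 2.47 ± 0.15 on the log2 scale (SE), and Hspa5, the ER chaperone BiP, by 1.47 ± 0.16. The summed CPM of 9 fibroblast markers was 13880 to 17794 in controls and 13851 to 15922 with tunicamycin. Markers of cartilage cells were also abundant, at 1888 and 2102 summed CPM in the libraries of BW35770 and at 6233 to 9039 in those of the other animals. The leukocyte marker Ptprc had 1 count over all 6 libraries and Cd3e had 0. Summed over 9 leukocyte markers, CPM was 89.3 to 181.8 in controls and 70.5 to 157.9 with tunicamycin, nearly all of it from Cd68, at 128 ± 44.8 CPM in controls. Of the tested fibroblast, cartilage and leukocyte markers 0 were called in edgeR, DESeq2 or limma-voom, and 1 cartilage marker (Sox9, lower) had an unadjusted p under 0.05. With the replicate block 1 marker of another cell type was called, the keratinocyte gene Krt14. It was at 4.52, 8.99 and 22.7 CPM in the controls of BW35770, BW35772 and BW35773 and at 2.23, 3.92 and 12.2 CPM with tunicamycin, lower in all 3 animals (edgeR adjusted p = 0.02 with the block and 0.622 without). The part of keratinocytes in the results that follow was not tested. Ptprc, Cd3e, Cd68, Sox9 and Krt14 were named after their values were seen. In these bulk libraries, a change in the number of cells of a type and a change in RNA per cell cannot be told apart.

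After 5 h of tunicamycin, transcripts of the NF-kB subunits Relb and Nfkb2 and of the inhibitors Nfkbia and Tnfaip3 were higher. Of the 8 genes measured, 4 rose and 0 fell (edgeR quasi-likelihood test, adjusted p under 0.05), beside 1.78% of all 13503 tested genes that rose and 0.792% that fell. The other 4, Rel, Nfkb1, Nfkbie and Bcl3, were not called. In a fit that compares the libraries within each animal (the replicate block), Rel and Nfkbie were called as well, so that 6 of 8 rose and 0 fell, beside 3.07% and 2.40% of all tested genes. Without animal BW35770 the blocked fit called 3 of the 8 higher, beside 74 of all tested genes in place of 415. In unpaired fits that dropped 1 library the count was 1 without the control of BW35772. It was 2 without the control of BW35773 or the tunicamycin library of BW35770. All tested genes called higher numbered 51, 46 and 97 in these fits, in that order, against 241 with all libraries. At an unadjusted p under 0.05, 7 genes were higher and 0 lower in edgeR, and DESeq2 and limma-voom called 7 and 4 higher and 0 lower. Over all tested genes DESeq2 called 604 higher and 338 lower, and limma-voom 218 and 104. Counts at an unadjusted p, here and below, have no share of all tested genes beside them and cannot be set against a background. The median log2 fold change of the 8 genes was 1.27, and that of all tested genes was -0.01. In 7 of the 8 genes, Bcl3 being the exception, the lowest tunicamycin library lay above the highest control library. The same was true of 12.3% of all tested genes, and 9.98% had the opposite order. The genes were chosen with earlier results of these data known, so these counts describe them and do not test them as a group.

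**Figure D1:**
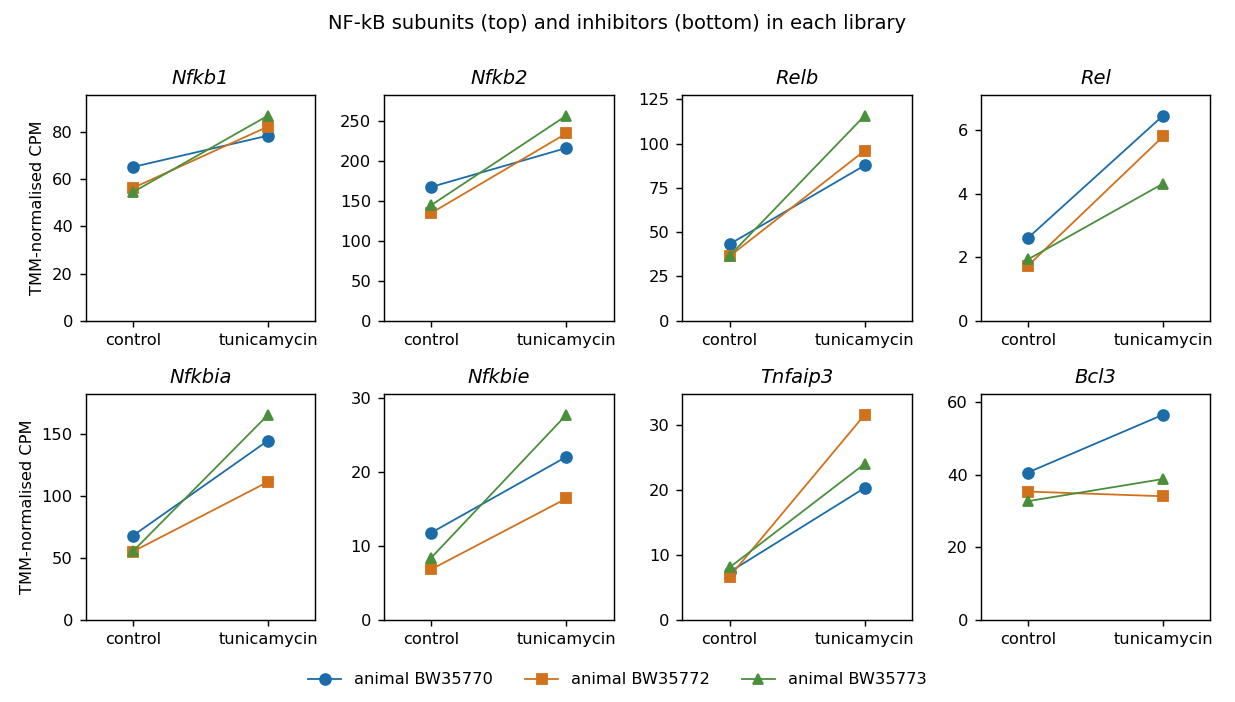
Normalised level (CPM, vertical axes from 0, with a scale for each gene) of 4 NF-kB subunit genes and 4 inhibitor genes in control and tunicamycin libraries, with a line joining the libraries of each animal. All lines rise except that of Bcl3 in animal BW35772, which goes from 35.4 to 34.1 CPM.

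Among the subunits, Relb had the smallest adjusted p. RelB is the partner of p52 in the non-canonical arm. The gene (ENSPEMG00000017792) lies on scaffold KI616132.1, bases 112580 to 138066, minus strand, with 13 annotated exons. Its level was 43.2, 36.4 and 36.6 CPM in the controls of BW35770, BW35772 and BW35773, and 87.7, 96.1 and 115.8 CPM in their tunicamycin libraries. The groups did not overlap, and BW35773 had the highest treated library. The log2 fold change was 1.37 ± 0.15 (SE, edgeR adjusted p = 0.00503), a 2.58-fold rise. Relb kept its call in all 17 alternative settings tried, with log2 fold changes from 1.24 to 1.53. The margin was narrow in unpaired fits without the control of BW35773 or of BW35772 (edgeR adjusted p = 0.0493 and 0.0388).

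Nfkb2 encodes p100, which acts as an inhibitor of RelB until it is cut to p52. It was found on scaffold KI615675.1, bases 2403629 to 2411037, plus strand, 23 exons (ENSPEMG00000014947). Controls stood at 167.8, 135.0 and 144.9 CPM and tunicamycin libraries at 216.7, 235.1 and 257.4 CPM, in the order of animals used above. The groups did not overlap, but the gap between the highest control and the lowest treated library came from the same animal, BW35770, whose pair differed by only 0.37 on the log2 scale, against 0.80 and 0.83 in the others. The rise was 1.58-fold, or 0.66 ± 0.13 on the log2 scale, and its adjusted p in edgeR, 0.0453, was close to the threshold. Unpaired fits without 1 library did not call Nfkb2: the edgeR adjusted p was 0.0863, 0.195 and 0.233 when the control of BW35770, BW35772 or BW35773 was dropped, and 0.0944, 0.0741 and 0.0508 when their tunicamycin libraries were. Pairing by the replicate block gave 0.0319 over all libraries and 0.145 without animal BW35770.

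Nfkb1 encodes p105, the precursor of p50 of the canonical dimers (ENSPEMG00000011360, scaffold KI615321.1, bases 7969773 to 8061497, plus strand, 23 exons). Its controls were at 65.2, 56.3 and 54.5 CPM and its tunicamycin libraries at 78.5, 82.4 and 87.0 CPM. These groups did not overlap, and the difference was small in BW35770, at 0.27 on the log2 scale, beside 0.55 and 0.67 in the other animals. The log2 fold change was 0.49 ± 0.12 (95% interval 0.22 to 0.77) and was not called (edgeR adjusted p = 0.0861, and 0.0715 with the replicate block). DESeq2 called it higher (adjusted p = 0.0163).

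Rel encodes c-Rel, a subunit best known from lymphocytes (ENSPEMG00000009851, scaffold KI615367.1, bases 3266128 to 3296228, plus strand, 11 exons). It was scarce in these fibroblasts, with 110, 63 and 77 counts in the controls and 290, 303 and 173 counts in the tunicamycin libraries. Scaled to library size this was 2.6, 1.73 and 1.93 CPM against 6.45, 5.80 and 4.31 CPM, with no overlap. The log2 fold change of 1.40 ± 0.28 was as large as that of Relb, with an interval that reached from 0.74 to 2.07. The call turned on small choices, with an adjusted p in edgeR of 0.0514, against 0.0483 with RLE size factors, 0.0496 with upper-quartile factors, 0.0498 with no filter and 0.0473 with a stricter filter, 0.0564 in limma-voom and 0.022 with the replicate block. In DESeq2 it was 0.000116. It was 0.0369 without the tunicamycin library of BW35773, the lowest of the treated libraries, and 0.248 in the blocked fit without animal BW35770.

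Of the inhibitors, Tnfaip3 had the largest change. It encodes A20, a ubiquitin-editing enzyme that shuts off signalling upstream of IKK (ENSPEMG00000000880, scaffold KI615603.1, bases 2674983 to 2689670, minus strand, 11 exons). Control libraries were close together at 7.35, 6.63 and 8.06 CPM, and tunicamycin libraries were at 20.3, 31.6 and 24.0 CPM. The treated library of BW35772 stood highest, with 1649 counts against 242 in its control. The rise was 3.44-fold, 1.78 ± 0.20 on the log2 scale (edgeR adjusted p = 0.00682), and the gene ranked 72 of 13503 by log2 fold change. Dropping the control of BW35772 in an unpaired fit ended the call (edgeR adjusted p = 0.0601) and left the log2 fold change at 1.75.

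Nfkbia encodes IkB-alpha, the inhibitor that IKK destroys first and that NF-kB restores (ENSPEMG00000019685, scaffold KI615568.1, bases 934106 to 938524, plus strand, 7 exons). It stood at 67.7, 54.9 and 55.1 CPM in controls and at 144.4, 111.2 and 165.3 CPM with tunicamycin, again with no overlap. The log2 fold change was 1.24 ± 0.17 (edgeR adjusted p = 0.0148), a 2.37-fold rise. The call ended when the tunicamycin library of BW35770 was dropped (edgeR adjusted p = 0.0542), or the control of BW35772 or of BW35773 (0.0836 and 0.108). Without the low treated library of BW35772 the log2 fold change was 1.40 (edgeR adjusted p = 0.00882). The replicate block over all libraries gave an edgeR adjusted p of 0.00486. Tested against a change of 1.5-fold in place of 0, Nfkbia and Nfkb2 were not called, while Relb and Tnfaip3 were.

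Nfkbie encodes IkB-epsilon, a slower-acting IkB protein that binds c-Rel and p65 (ENSPEMG00000009911, scaffold KI615558.1, bases 860342 to 868130, minus strand, 7 exons). Its controls differed more than those of Nfkbia, at 11.8, 6.82 and 8.38 CPM, and its tunicamycin libraries stood at 22.0, 16.4 and 27.7 CPM. The libraries of BW35772 were the lowest of both groups. The log2 fold change was 1.29 ± 0.27, much like that of Nfkbia, but it was not called (edgeR adjusted p = 0.0569). The replicate block, which removes the differences between animals, gave 1.30 ± 0.19 on the log2 scale (edgeR adjusted p = 0.0125, and 0.0634 without animal BW35770). DESeq2 and the fits with no filter or a stricter filter called it too (adjusted p = 0.000167, 0.0361 and 0.0473), as did the fit without the tunicamycin library of BW35772 (0.0448).

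Bcl3 is a nuclear IkB protein that binds p50 and p52 dimers on DNA (ENSPEMG00000015346, scaffold KI616132.1, bases 324643 to 339026, minus strand, 9 exons). It was at 40.6, 35.4 and 32.7 CPM in controls and at 56.6, 34.1 and 38.8 CPM with tunicamycin. Here the groups overlapped, and the pairs differed by 0.48, -0.05 and 0.25 on the log2 scale. The log2 fold change was 0.25 ± 0.20 (95% interval -0.22 to 0.73, edgeR adjusted p = 0.655), so a rise of up to 1.66-fold lies within the interval. Without the tunicamycin library of BW35770 the log2 fold change was 0.01. Bcl3 and Relb sit on the same scaffold and strand with 186.6 kb and 9 annotated genes between them. The response of Relb exceeded that of Bcl3 by 0.54, 1.45 and 1.41 on the log2 scale in the 3 animals, a difference that was not tested.

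**Figure D2:**
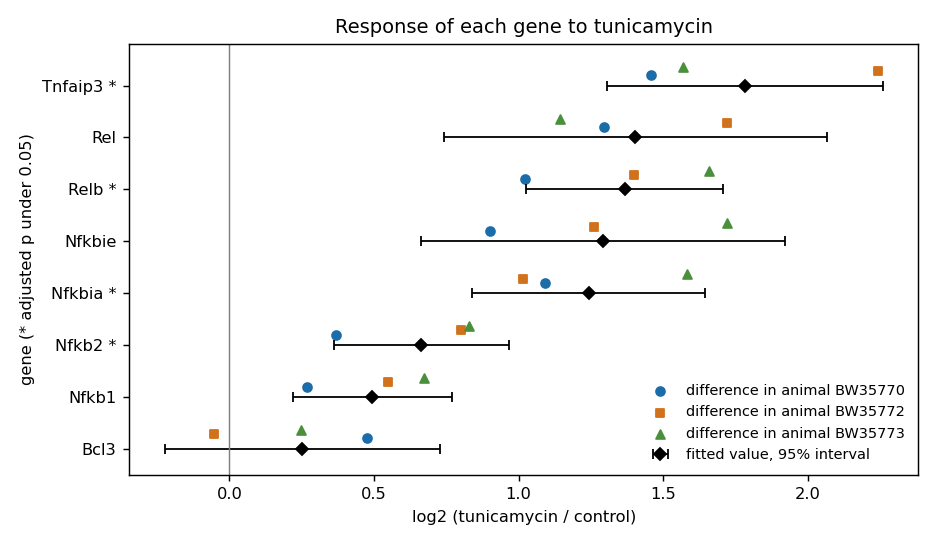
Log2 ratio of tunicamycin to control for each gene, with the fitted value and its 95% interval (black) and the difference within each animal (coloured points, offset upward). Intervals of 7 genes lie above 0, that of Bcl3 spans 0, and only starred genes have an adjusted p under 0.05.

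The size of the response varied between animals. Over the 8 genes the median log2 difference was 0.96 in BW35770, 1.14 in BW35772 and 1.36 in BW35773. The smallest difference of a gene came from BW35770 in 5 of the 8 genes, and the largest from BW35773 in 5. These counts have no share of all tested genes beside them. For every gene but Tnfaip3 the control of BW35770 was the highest of the 3 controls, and its part in the smaller differences was not tested. BW35772 had the largest differences for Tnfaip3 and Rel, at 2.24 and 1.72. Of the treatment check genes, Atf4 had the same order, with differences of 2.31, 2.46 and 2.65 in BW35770, BW35772 and BW35773, while Ddit3 (3.76, 3.46 and 4.53) and Hspa5 (1.68, 1.18 and 1.59) did not. Cartilage markers, lower in BW35770, vary with these animals too. With 1 pair per animal, differences between animals were not tested, and the part of cartilage cells in them was not tested either.

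To compare levels between genes, CPM was divided by the annotated exon length in kb, which depends on how completely each gene is annotated. In controls Nfkb2 was the most abundant of the 8 transcripts, at 46.4 ± 5.22 CPM per kb, followed by Nfkbia at 41.7 ± 5.16, and these neighbours overlapped. Bcl3 (19.4 ± 2.15 CPM per kb), Relb (17.4 ± 1.74) and Nfkb1 (16.3 ± 1.59) formed a middle level and also overlapped with each other. Nfkbie (3.43 ± 0.97), Tnfaip3 (2.53 ± 0.25) and Rel (0.86 ± 0.19) were lower, Rel being below the other genes in every library. Among tested genes in controls, levels per kb ran from the 14.0th percentile for Rel to the 84.5th for Nfkb2.

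With tunicamycin the order per kb changed. Nfkbia came first at 98.7 ± 19.2 CPM per kb, ahead of Nfkb2 at 73.4 ± 6.33. Nfkb2 was above Nfkbia in each of the 3 controls, and Nfkbia above Nfkb2 in each of the 3 tunicamycin libraries. Relb, at 44.9 ± 6.48 CPM per kb, left the middle level of Bcl3 (23.1 ± 6.35) and Nfkb1 (23.0 ± 1.18). Tnfaip3 (8.72 ± 1.98) and Nfkbie (8.42 ± 2.16) did not differ beyond their spread. In controls their ranges also overlapped, with Nfkbie above Tnfaip3 in each library.

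Relative to each other, the 4 measured subunits shifted toward Relb. Relb made up 21.4, 21.9 and 21.3% of their summed CPM per kb in the controls and 30.0, 30.5 and 32.9% in the tunicamycin libraries. Nfkb2 went from 57.4, 56.2 and 58.1% to 51.3, 51.6 and 50.6%, although its own level was higher with treatment. Nfkb1 went from 20.0, 21.0 and 19.6% to 16.6, 16.2 and 15.3%. Rel, a small part, was higher in each animal, going from 1.18, 0.96 and 1.03% to 2.03, 1.69 and 1.13%. For Relb, Nfkb2 and Nfkb1 the groups did not overlap, while those of Rel did. The amount of Relb per unit of Nfkb1 (ratio of CPM per kb) was 1.07, 1.04 and 1.09 in controls and 1.80, 1.88 and 2.15 with tunicamycin. Summed Nfkbia and Nfkbie per unit of the 4 subunits was 0.575, 0.553 and 0.542 in controls and 0.838, 0.597 and 0.803 with tunicamycin, where the value of BW35772 was closest to the controls. These shares and ratios leave out Rela and were given no test.

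**Figure D3:**
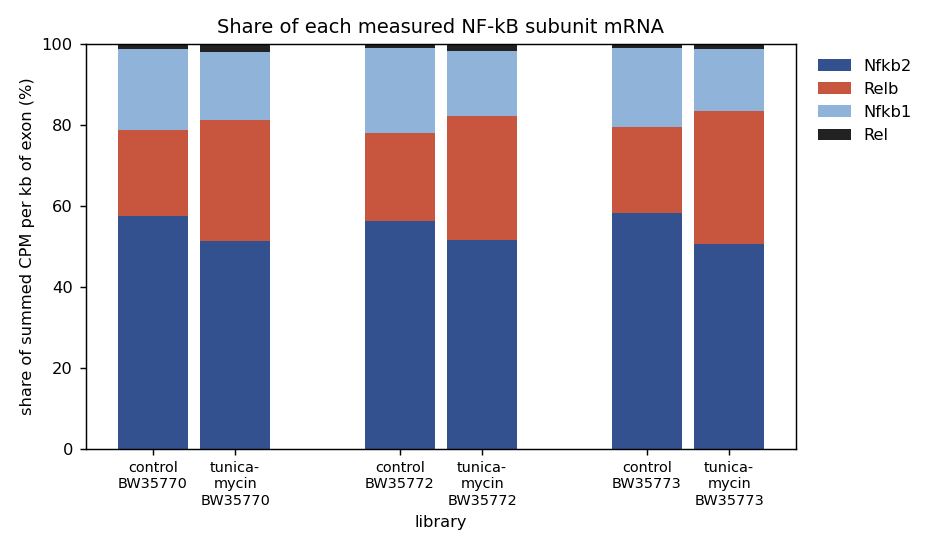
Share of each of 4 NF-kB subunit transcripts in their summed level (CPM per kb of exon, stacked bars adding to 100%) in each library, ordered by animal. The share of Relb is 21.3 to 21.9% in the 3 control bars and 30.0 to 32.9% in the 3 tunicamycin bars.

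The genes of the signalling machinery upstream were described by lists. Of 74 tested genes in 4 lists of pathway components, 3 rose and 0 fell, with a median log2 fold change of 0.12. Of all tested genes 1.78% rose and 0.792% fell. At an unadjusted p under 0.05, 18 were higher and 0 lower. With the replicate block 6 rose and 1 fell, beside 3.07% and 2.40% of all tested genes. These lists, like the genes above, were drawn up with earlier results known.

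Among 24 adaptors and ubiquitin ligases 2 rose and 0 fell, beside 1.78% and 0.792% of all tested genes. Birc3, the ligase cIAP2 that adds ubiquitin chains at the TNF receptor and is itself an NF-kB target, was at 25.0, 21.3 and 25.3 CPM in controls and at 90.8, 97.7 and 121.5 CPM with tunicamycin. Its log2 fold change was 2.11 ± 0.15 (edgeR adjusted p = 0.000865), larger than that of any of the 8 subunit and inhibitor genes. Traf2, the adaptor that links TNF receptors and IRE1 to downstream kinases, rose by 1.07 ± 0.10 (edgeR adjusted p = 0.00321), from 44.7 ± 2.17 to 93.5 ± 1.6 CPM. Birc3 kept its call in all 17 alternative settings and Traf2 in 16, the exception being the blocked fit without animal BW35770 (edgeR adjusted p = 0.068). Nod1, a sensor of bacterial cell wall, was the gene called lower with the block (-0.84 on the log2 scale, edgeR adjusted p = 0.0281). It was named after its values were seen.

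In the list of 18 kinases, their subunits and the IkB ligase, 1 rose and 0 fell, beside 1.78% and 0.792% of all tested genes. The gene that rose was Tab1, a partner of the kinase TAK1. Its log2 fold change was 1.09 ± 0.19 (edgeR adjusted p = 0.0333), at 8.47 ± 1.23 CPM in controls and 18.0 ± 2.90 CPM with tunicamycin. Dropping any 1 library other than the tunicamycin library of BW35773 ended its call (edgeR adjusted p from 0.0659 to 0.18 in unpaired fits). Btrc, the ligase component that recognises phosphorylated IkB, had 0.42 ± 0.12 (edgeR adjusted p = 0.139). The 3 IKK subunits, named here after their values were seen, were near 0. Their 95% intervals were -0.42 to 0.42 for Chuk, -0.48 to 0.50 for Ikbkb and -0.32 to 0.38 for Ikbkg, so changes beyond about 1.41-fold lie outside these intervals.

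Of 16 tested receptors 0 rose and 0 fell in edgeR, beside 1.78% and 0.792% of all tested genes. In a list this short, a count of 0 cannot be told from those shares. Edar, the ectodysplasin receptor of skin appendages, went from 1.11 ± 0.53 to 5.11 ± 2.56 CPM, with a difference of 2.20 ± 0.54 on the log2 scale (edgeR adjusted p = 0.0963). Tlr2, a receptor for bacterial lipoproteins, had 1.57 ± 0.42 (edgeR adjusted p = 0.118). Both were called higher with the replicate block (edgeR adjusted p = 0.00699 and 0.0162) and by DESeq2 (adjusted p = 0.000612 and 0.00344). At an unadjusted p under 0.05 these 2 were higher and 0 lower, and limma-voom called 0. Of 16 other inhibitors and deubiquitinases 0 rose and 0 fell in edgeR, again beside 1.78% and 0.792% of all tested genes, and 0 were called in limma-voom. Of these inhibitors 6 were higher and 0 lower at an unadjusted p under 0.05. DESeq2 called 3 of these inhibitors higher, beside 604 genes over all it tested. Cyld, which removes the chains that activate IKK, had 0.65 ± 0.16 on the log2 scale (edgeR adjusted p = 0.101), and Nfkbib, which encodes IkB-beta, had 0.62 ± 0.16 (edgeR adjusted p = 0.106). DESeq2 called both (adjusted p = 0.0183 and 0.0166). With the block 1 inhibitor rose, Zc3h12a, an RNase that degrades cytokine transcripts, which was named after its values were seen (log2 fold change 0.93, edgeR adjusted p = 0.0258).

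Of 25 tested genes listed as textbook NF-kB targets 4 rose and 0 fell, beside 1.78% and 0.792% of all tested genes, with a median log2 fold change of 0.34. At an unadjusted p under 0.05, 9 were higher and 1 lower (Ccl5, named after its values were seen). The 4 that rose were the chemokines Cxcl1, Cxcl2 and Cxcl10 and the cytokine Lif. Cxcl10, which attracts T cells, was at 5.87 ± 0.88 CPM in controls and 21.5 ± 7.53 CPM with tunicamycin, a difference of 1.87 ± 0.27 on the log2 scale (edgeR adjusted p = 0.0179). The neutrophil attractants Cxcl1 and Cxcl2 rose by 1.64 ± 0.23 and 1.71 ± 0.31 on the log2 scale (edgeR adjusted p = 0.0165 and 0.0361). Lif rose by 2.95 ± 0.44 from a very low level of 0.22 ± 0.07 CPM (edgeR adjusted p = 0.0188). In unpaired fits that dropped any 1 control, 0 of the 4 were called (edgeR adjusted p from 0.0616 to 0.156). Dropping the tunicamycin library of BW35770 left 2 targets called, with Cxcl2 and Lif at 0.0865 and 0.0614, and dropping that of BW35772 put Lif at 0.0515. Cxcl2 was at 0.0515 in limma-voom. The blocked fit without animal BW35770 left Cxcl10, Cxcl2 and Lif uncalled (edgeR adjusted p = 0.0502, 0.0596 and 0.141). In that fit 3 targets were called higher, beside 74 of all tested genes.

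With the replicate block 7 targets rose and 0 fell, beside 3.07% and 2.40% of all tested genes, with Ccl2, Cxcl5 and Cflar added (edgeR adjusted p = 0.0231, 0.0446 and 0.00576). Ccl2 attracts monocytes, Cxcl5 attracts neutrophils, and Cflar encodes the caspase inhibitor FLIP. These 3, and the targets that follow, were named after their values were seen. Several abundant targets were not called. Icam1 and Vcam1, adhesion molecules for leukocytes, had log2 fold changes of -0.26 ± 0.25 and 0.09 ± 0.22, and the mitochondrial superoxide dismutase Sod2 had -0.09 ± 0.18. Il6, a major inflammatory cytokine, was at 2.62 ± 0.62 and 3.32 ± 1.26 CPM in control and tunicamycin libraries, a difference of 0.34 ± 0.37 on the log2 scale (edgeR adjusted p = 0.765).

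**Figure D4:**
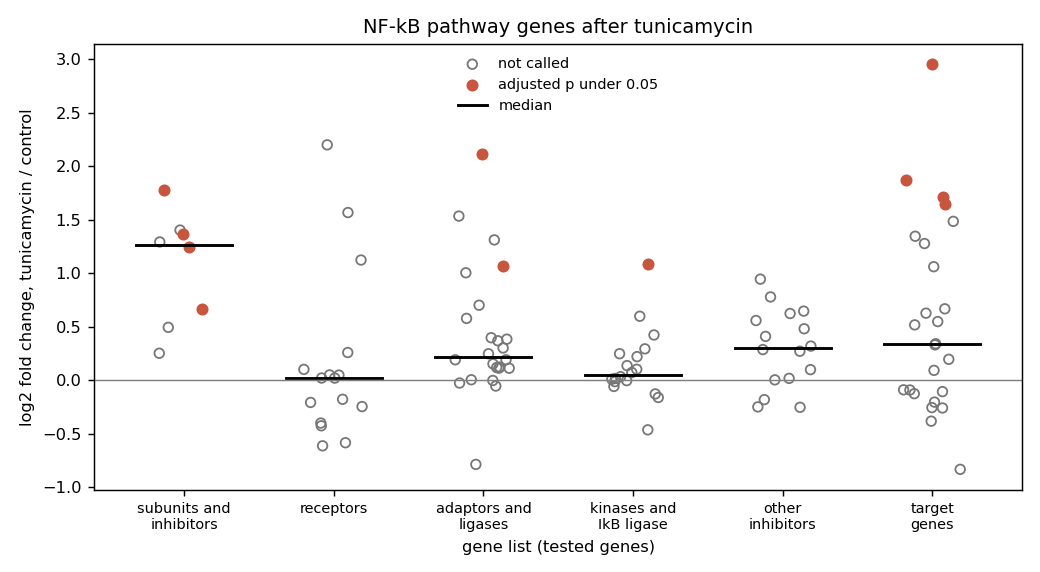
Log2 fold change (tunicamycin over control) of every tested gene in 6 lists, with called genes filled, other genes open and a bar at each list's median; horizontal positions are spread for legibility. The median is 1.27 for the 8 subunit and inhibitor genes and between 0.02 and 0.34 for the other lists, and no called gene is below 0.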

How the data were processed

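RNA-seq libraries of 3 control and 3 tunicamycin cultures were compared. The authors deposited raw read counts for each gene. Reads were aligned with STAR 2.6.1, handled with SAMtools 1.6 and counted with featureCounts (Subread), per the submitters' processing notes. Strand-specific counting is stated only in the table's title, and build, annotation release and handling of multi-mapping reads were not given in the sources used here. Scaffold coordinates and exon lengths are those of the table.

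Genes were filtered with filterByExpr (minimum count 10, minimum total 15), scaled by TMM and tested with edgeR 4.0.16 in R 4.3.3 (glmQLFTest, two-sided, no other term), with Benjamini-Hochberg adjustment over all 13503 tested genes and a threshold of 0.05. "Rose", "fell" and "called" refer to this threshold. The SE is the log2 fold change divided by the square root of F. Differences within a pair use log2 CPM with a prior count of 2. DESeq2 1.42.0 and limma-voom (limma 3.58.1) were alternatives. Title numbers were read as animals. Deviations from group means correlated at 0.656, 0.408 and 0.217 within the pairs of BW35770, BW35772 and BW35773. Between libraries of different animals the values were -0.448 to 0.132, the highest being close to that within BW35773. A fit with the animal as replicate block was run as well. Replicates are cultures of 3 animals. In simulated data on 13335 genes, edgeR recovered 39 of 100 genes changed 2-fold and 78 of 100 changed 4-fold. The simulated counts held no differences between animals and the changed genes were picked at random, so recovery in the real libraries may differ.

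The members and lists were chosen with earlier results of these data known. Named genes are the members, Ddit3, Atf4 and Hspa5, from each pathway list the 2 genes with the smallest p, and from the targets the 4. Other genes are marked as named after their values were seen. Keratinocyte, endothelial and melanocyte or muscle marker lists summed to at most 23.2, 4.75 and 1.39 CPM in any library.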

Additional observations from a re-analysis of the deposited data

How the results depend on the processing

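The counts of called genes and the log2 fold changes of the genes named by rule were recomputed under 17 alternatives, and none of those log2 fold changes changed sign. For genes named after their values were seen, single values were compared only with and without the replicate block, where Ikbkb went from 0.01 to -0.02. The shares of the subunits had 1 alternative, and the level ratios and orders had none. Of the 8 subunit and inhibitor genes, 4 rose as reported, 7 with DESeq2, 2 with a 1.5-fold change as the null hypothesis, and 1 to 4 with 1 library left out (1 without the control of BW35772). The blocked fit called 6, and 3, 6 and 6 without BW35770, BW35772 or BW35773. None was called lower in any of these settings. For the other pathway genes, 3 rose as reported, against 10 with DESeq2 and 6 with the replicate block, and 1, 8 and 8 in the blocked fit without BW35770, BW35772 or BW35773. Pathway genes called lower numbered 0 as reported, 1 with the replicate block, and 1 and 2 in the blocked fit without BW35772 or BW35773. Of the targets 4 rose as reported, 7 with DESeq2, 7 with the replicate block, 1 against the 1.5-fold null, 0 to 5 with 1 library left out, and 3, 10 and 7 in the blocked fit without BW35770, BW35772 or BW35773. DESeq2 called 1 target lower. Over all tested genes 241 rose and 107 fell as reported, 604 and 338 with DESeq2, 415 and 324 with the replicate block, and 57 and 18 against the 1.5-fold null. Leaving out 1 library gave 46 to 313 higher and 15 to 251 lower. Blocked fits without BW35770, BW35772 or BW35773 gave 74, 497 and 806 higher and 37, 451 and 826 lower. Without division by exon length, the mean change in the share of Relb was 7.88 percentage points (9.65 as reported) and that of Nfkb2 -4.27 (-6.08 as reported). The causes of these movements were not tested, beyond the fewer samples of the fits that leave some out. Where leaving out a library left 2 in a group of an unpaired fit, the design had 3 residual degrees of freedom. Blocked fits without an animal, on 2 pairs, had fewer still. Among the members, counts were lowest for Rel, with 63 to 110 per control, and they were also low for the target Lif. Counting error was not computed.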

Other observations

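Transcripts of the classical cytokines that activate NF-kB were nearly absent in both groups, as far as the table names them. Tnf had 0, 0 and 0 counts in the controls of BW35770, BW35772 and BW35773 and 2, 0 and 2 in their tunicamycin libraries. Il1b had 1 count over all 6 libraries. Csf2, a growth factor for myeloid cells, had 1, 0 and 0 counts in controls and 7, 3 and 2 with tunicamycin. Csf3, a growth factor for neutrophils, had 10, 9 and 4 counts and 19, 23 and 9. Nos2, the inducible nitric oxide synthase, had 3, 0 and 2 counts in controls and 0, 13 and 11 with tunicamycin. Sele, an adhesion molecule of endothelium, had 4, 1 and 1 counts in controls and 0 in every tunicamycin library. All of these genes were under the filter on low counts and were not tested. They and the genes that follow, Traf2 excepted, were named after their values were seen.

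The differences of some target and pathway genes varied between animals. Traf3, which restrains the non-canonical arm, differed by 0.04, 1.63 and 0.21 on the log2 scale in BW35770, BW35772 and BW35773, and Ripk2, a kinase that acts below the NOD receptors, by 0.45, 1.59 and 0.82. In the same order Ccl2 differed by 0.63, 1.55 and 2.11 and Cxcl5 by 0.37, 1.71 and 2.04. Traf2 differed by 1.04, 0.99 and 1.17, and its 3 pairs were closer together than those of any of the 8 subunit and inhibitor genes. Ccl5, a T cell chemokine, was lower in all 3 animals, by -0.67, -1.14 and -0.66 (edgeR adjusted p = 0.113), and the groups did not overlap. It was the 1 listed target that was lower at an unadjusted p under 0.05 (edgeR unadjusted p = 0.00581).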
